A study of Mus musculus with 12 samples.

Results

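The genes described here encode the NADPH oxidases that make superoxide or hydrogen peroxide in epithelium and in phagocytes. They were chosen by name and not by a cut on measured values, though with earlier results of these data known. They comprise 9 of the 46603 genes in the count table: Duox2, Duoxa2, Nox1, Noxo1, Noxa1, Cyba, Cybb, Ncf1 and Ncf4. All 9 were found by Ensembl identifier. Their RNA was measured by poly-A sequencing of ileum and synovium from TNFdARE mice and WT littermates, with 3 biological replicates for each tissue and genotype, 12 libraries in all. TNFdARE mice carry a Tnf gene that lacks the AU-rich element, which normally shortens the life of the mRNA, and inflammation of the ileum and joints is known from this line. The allele is carried in the germline and so is not limited to a cell type. Zygosity, age and sex are absent from the labels used here, as is any link of ileum and synovium samples to a shared animal. Library totals lay between 14267834 and 16224402 counts. Tnf itself read 17.2 to 82.5 CPM, counts scaled to library size, in TNFdARE ileum against 1.39 to 2.64 in WT ileum, and 28.3 to 38.5 against 1.88 to 2.14 in synovium. The tissue labels matched their markers: 12 epithelial genes summed to 13566 to 20500 CPM across the ileum libraries and 33.6 to 45.3 in synovium, where the intestinal factor Cdx2 had no counts.

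NADPH oxidases pass electrons from NADPH across a membrane to oxygen. DUOX2, the dual oxidase of the gut surface, releases hydrogen peroxide and needs the maturation factor DUOXA2 to leave the endoplasmic reticulum. NOX1, the oxidase of intestinal epithelium best known from the colon, pairs with the small membrane subunit encoded by Cyba and is switched on by the organizer NOXO1 and the activator NOXA1. The phagocyte oxidase, used by neutrophils and macrophages against microbes, is built from the Cybb and Cyba products in the membrane and from cytosolic subunits that include those of Ncf1 and Ncf4, with a Rac GTPase. Cyba therefore serves both the NOX1 and the phagocyte enzyme. Because whole tissue was sequenced, more cells of a type and more RNA per cell cannot be told apart in any result below.

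Upstream sequences of 250 bases are shown for 4 genes that stand for the 3 systems, because the results turn on groups of these genes that share a level in one tissue or move together with genotype. They come from RefSeq (GRCm38.p6), which held a window for 8 of the 9 genes. Each is written 5′ to 3′ on the strand of its gene and ends at the base before the RefSeq start. Capitals mark matches to 6 motifs searched on both strands: TATAAA; the STAT motif TTCNNNGAA; the PU.1 motif GAGGAA; the interferon response motif ISRE, which is GAAA, any 2 bases and GAAA again; the GATA motif AGATAA; and the consensus of NF-kB.
Duoxa2, chr2:122298650-122298899, plus strand: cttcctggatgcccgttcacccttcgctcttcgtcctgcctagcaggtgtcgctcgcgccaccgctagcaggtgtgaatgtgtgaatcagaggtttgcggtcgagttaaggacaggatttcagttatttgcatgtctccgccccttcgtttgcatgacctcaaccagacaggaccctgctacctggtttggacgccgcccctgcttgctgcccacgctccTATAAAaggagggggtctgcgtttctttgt
Nox1, chrX:134111855-134112104, minus strand: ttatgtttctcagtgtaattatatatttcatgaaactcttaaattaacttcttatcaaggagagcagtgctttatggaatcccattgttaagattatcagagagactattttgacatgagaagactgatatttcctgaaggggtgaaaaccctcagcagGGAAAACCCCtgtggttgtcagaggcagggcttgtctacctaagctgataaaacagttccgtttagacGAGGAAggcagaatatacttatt
Cybb, chrX:9469325-9469574, minus strand: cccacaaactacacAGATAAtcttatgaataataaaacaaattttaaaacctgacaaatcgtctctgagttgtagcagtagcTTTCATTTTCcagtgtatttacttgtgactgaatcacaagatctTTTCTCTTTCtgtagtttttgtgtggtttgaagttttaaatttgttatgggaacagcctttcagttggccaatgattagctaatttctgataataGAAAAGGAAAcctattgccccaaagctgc
Ncf1, chr5:134229626-134229875, minus strand: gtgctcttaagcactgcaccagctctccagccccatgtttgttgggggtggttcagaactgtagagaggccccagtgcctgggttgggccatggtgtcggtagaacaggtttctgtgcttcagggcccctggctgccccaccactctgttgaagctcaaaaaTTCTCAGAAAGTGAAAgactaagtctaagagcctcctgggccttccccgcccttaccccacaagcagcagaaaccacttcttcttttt

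Duox2 and Duoxa2 lie head to head on chromosome 2, with 450 bases between the start of Duox2 (122279247 to 122298449, minus strand) and that of Duoxa2 (122298900 to 122302885, plus strand), so the Duoxa2 window lies wholly in the gap they share. TATAAA stood 30 to 25 bases before the Duoxa2 start, and 12.4% of 32851 RefSeq windows of this length held it. The Nox1 window held an NF-kB match 91 to 82 bases before the start and GAGGAA at 23 to 18, found in 3.90% and 23.3% of windows. The Cybb window held 3 ISRE matches, 2 of them on the other strand, which 2.98% of windows held at least once, and an AGATAA, held by 9.99%. In Ncf1 a TTCNNNGAA match, held by 7.02% of windows, overlapped an ISRE match by 3 bases. The Nox1 and Cybb windows lie inside the longer gene models of the GENCODE annotation, which start further upstream. These are matches of letters only, and a missing match says only that those letters are not in the window.

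The oxidase genes divided by tissue (the plot of levels by library). In WT mice, 5 of the 9 genes were higher in ileum, namely Duox2, Duoxa2, Nox1, Noxo1 and Noxa1, 3 were lower there, namely Cybb, Ncf1 and Ncf4, and Cyba did not pass the test. Across all genes tested, 74.2% passed the test between WT tissues (edgeR quasi-likelihood test, Benjamini-Hochberg adjusted p under 0.05), 36.0% as higher in ileum and 38.2% as lower. All libraries of the 2 tissues lay apart for the same 5 and 3 genes, and for 78.6% of all genes, 38.4% higher in ileum and 40.2% lower. A count of genes that differ between these tissues is therefore close to the background, and the sizes carry the information.

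**Figure D1:**
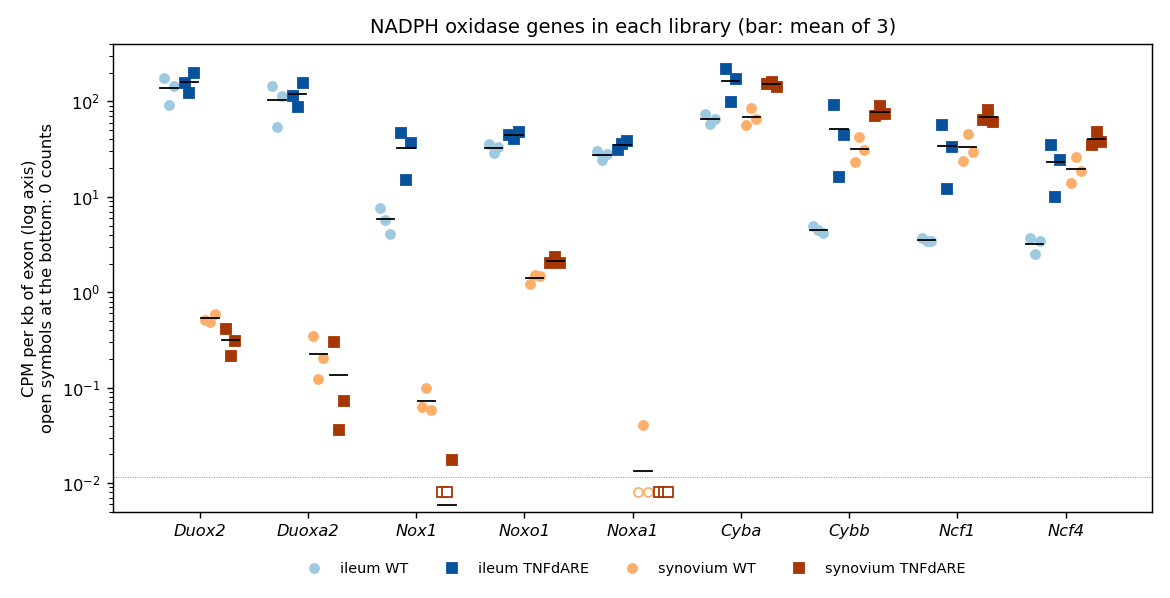
CPM per kb of exon of each gene (log axis) in each of the 12 libraries; points are libraries, black bars are means of 3, and open symbols at the bottom are libraries with 0 counts. Duox2, Duoxa2, Nox1, Noxo1 and Noxa1 are high in ileum and near the floor or low in synovium, and Cybb, Ncf1 and Ncf4 are lowest in WT ileum.

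Duox2 was the most abundant of these genes in WT ileum per kb of exon, the scale on which levels of different genes are compared here, at 138 ± 43.3 CPM per kb (SD, n = 3). Duoxa2 followed at 104 ± 46.2, and its range overlapped with those of Duox2 and Cyba. Cyba stood at 65.6 ± 7.99, Noxo1 at 32.5 ± 3.33 and Noxa1 at 27.4 ± 2.93, the ranges of Noxo1 and Noxa1 overlapping. Nox1, the catalytic partner of those last regulators, reached 5.81 ± 1.75, below both of them in every WT ileum library. The phagocyte genes had the lowest means, with Cybb at 4.53 ± 0.361, Ncf1 at 3.54 ± 0.172 and Ncf4 at 3.23 ± 0.648. The range of Cybb overlapped with that of Nox1, and that of Ncf1 with that of Ncf4. In WT synovium the order began with Cyba at 68.6 ± 14.4, followed by Ncf1 at 33.3 ± 11.4, Cybb at 32.1 ± 9.70 and Ncf4 at 19.7 ± 6.23. Neighbours among those last 3 overlapped in range. Noxo1 stood at 1.40 ± 0.166, Duox2 at 0.532 ± 0.0559, Duoxa2 at 0.225 ± 0.114 and Nox1 at 0.0733 ± 0.0216.

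The dual oxidase pair showed no genotype effect that passed the test in ileum. Duox2 read 1048, 835 and 1348 CPM in replicates 1, 2 and 3 of TNFdARE, and 1205, 623 and 974 in WT. Duoxa2 read 179, 140 and 247 against 230, 85.2 and 180. The groups overlapped for both genes, and the WT library with the lowest Duox2, replicate 2, also had the lowest Duoxa2. The log2 fold change (TNFdARE over WT) was 0.21 ± 0.28 (SE) for Duox2 (edgeR adjusted p = 0.639) and 0.20 ± 0.39 for Duoxa2 (adjusted p = 0.765). Without WT replicate 2 these became -0.013 and -0.12, so their sign rests on that library. Per kb, the level of Duox2 over that of Duoxa2 stayed between 1.23 and 1.72 in the 6 ileum libraries. Of the exon length of Duoxa2, 42.8% overlaps Duoxa1 on the other strand, but Duoxa1 had 7 counts in all in the ileum libraries (4 in TNFdARE, 3 in WT).

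In synovium the pair was low. Duox2 had 47, 25 and 36 counts in TNFdARE and 50, 51 and 62 in WT, which is 1.44 to 2.82 CPM against 3.31 to 4.03. The groups did not overlap, with TNFdARE lower, but the log2 fold change of -0.74 ± 0.28 did not pass the test (edgeR adjusted p = 0.0984). Duoxa2 had 8, 1 and 2 counts against 8, 3 and 5 and was too low to be tested. Duox2 was 258-fold higher in WT ileum than in WT synovium (log2 8.01 ± 0.35, adjusted p = 6.88e-09).

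Nox1 rose in TNFdARE ileum. It read 154, 49.8 and 122 CPM in TNFdARE replicates 1, 2 and 3 against 25.2, 18.8 and 13.7 in WT. The groups did not overlap, and replicate 2 was the lowest of the TNFdARE group. The increase was 5.69-fold (log2 2.51 ± 0.47, edgeR adjusted p = 0.0449). Of its exon length, 12.1% overlaps Cstf2 on the other strand, and the counting is not stated to use strand; Cstf2 itself lay between 46.9 and 55.4 CPM in all 6 ileum libraries. Set against the epithelial markers, Nox1 made 2.84 to 11.4 per 1000 CPM of their sum in TNFdARE and 0.723 to 1.23 in WT. That sum was 13566 to 17518 CPM in TNFdARE ileum and 18892 to 20500 in WT.

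The regulators of NOX1 differed less. Noxo1 read 133, 122 and 143 CPM in TNFdARE ileum against 107, 86.98 and 101 in WT, and Noxa1 read 50.5, 57.4 and 61.7 against 48.7, 39.3 and 45.0. In both genes all TNFdARE libraries lay above all WT libraries. The log2 fold changes were 0.44 ± 0.10 for Noxo1 (edgeR adjusted p = 0.0518) and 0.36 ± 0.11 for Noxa1 (adjusted p = 0.0932), neither past the threshold. Per kb, the level of Nox1 over that of Noxo1 was between 0.124 and 0.215 in the WT libraries and between 0.370 and 1.06 in the TNFdARE libraries. Over Noxa1 it was between 0.148 and 0.253 in WT and between 0.424 and 1.49 in TNFdARE. TNFdARE replicate 1 was the only ileum library in which Nox1 exceeded both regulators per kb.

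In synovium Nox1 had 0, 0 and 1 counts in TNFdARE and 3, 5 and 3 in WT. The ratio of the summed shares was 0.0803, with a counting interval from 0.00187 to 0.553 (95%, counting error only). Noxa1 had 1 count over all 6 synovium libraries. Noxo1 was the exception among the epithelial genes: it read 6.13, 7.04 and 6.16 CPM in TNFdARE synovium against 3.67, 4.61 and 4.42 in WT, a rise of 1.54-fold (log2 0.63 ± 0.18, edgeR adjusted p = 0.0396). This call ended without any single library, with adjusted p between 0.0658 and 0.105. Noxo1 shares 70.4% of its exon length with Tbl3 on the other strand. Tbl3 read 31.2 to 34.3 CPM in TNFdARE synovium against 25.6 to 31.5 in WT, so reads of the pair cannot be told apart if the counting ignored strand.

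Among the 9 genes, those with the 3 highest fold changes in ileum were phagocyte genes (the plot of genotype effects). Cybb, which encodes the catalytic subunit NOX2, read 533, 94.8 and 260 CPM in TNFdARE replicates 1, 2 and 3 against 28.5, 26.3 and 24.3 in WT. Replicate 2 was the lowest and replicate 1 the highest of the TNFdARE group, and the groups did not overlap. The increase was 11.3-fold (log2 3.50 ± 0.64, edgeR adjusted p = 0.0445). Ncf1, which encodes the organizer subunit, read 206, 44.6 and 123 CPM against 13.7, 12.5 and 12.7, an increase of 9.65-fold (log2 3.27 ± 0.56, adjusted p = 0.0412). Of the exon length of Ncf1, 11.1% overlaps Gtf2ird2 on the other strand. Gtf2ird2 read 9.62 to 11.8 CPM in TNFdARE ileum and 8.09 to 10.8 in WT ileum. Ncf4, which encodes a phosphoinositide-binding subunit, read 70.7, 20.3 and 48.8 against 7.499, 5.04 and 7.04, an increase of 7.17-fold (log2 2.84 ± 0.49, adjusted p = 0.0412). The same order of the TNFdARE libraries held in all 3 genes, while in WT the order of Cybb differed from that of Ncf1 and Ncf4. Cyba read 227, 104 and 177 CPM against 76.5, 59.9 and 68.0, and its log2 fold change of 1.32 ± 0.29 missed the threshold (adjusted p = 0.0535).

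**Figure D2:**
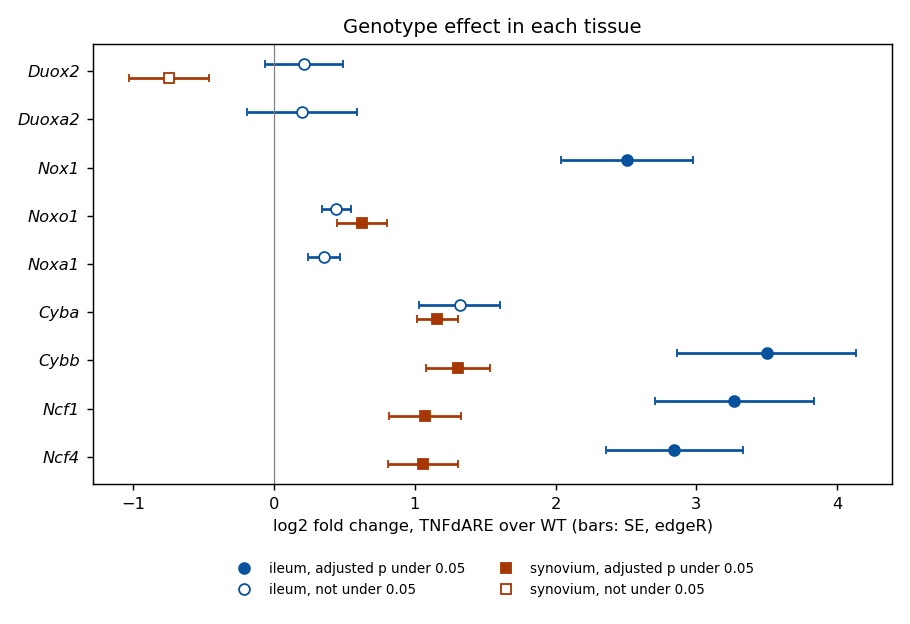
Log2 fold change of TNFdARE over WT for each gene in ileum (circles) and synovium (squares), with SE bars from edgeR; filled symbols passed an adjusted p of 0.05 and open symbols did not. Genes with no synovium symbol were too low to test, and the ileum values of Cybb, Ncf1, Ncf4 and Nox1 lie furthest to the right, between 2.51 and 3.50.

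In all, 4 of the 9 genes rose in TNFdARE ileum and 0 fell, where 5.68% of all 15462 genes tested were called, 4.12% higher and 1.57% lower. The other 5 did not pass. An unadjusted p under 0.05 was found for 7 of the 9, and for 30.5% of all genes. All libraries of one genotype lay above the other for 7 of the 9 genes, each with TNFdARE higher, against 18.8% of all genes in that direction and 37.4% in either. The median log2 fold change of the 9 was 1.32, against -0.0024 over all genes. All 4 calls ended when any one library other than TNFdARE replicate 2 was left out (adjusted p up to 0.175), while the log2 fold changes stayed between 2.77 and 3.93 for Cybb, 2.70 and 3.68 for Ncf1, 2.42 and 3.21 for Ncf4 and 2.17 and 2.86 for Nox1. Without TNFdARE replicate 2 the count was 6, with Noxo1 and Cyba added. By limma-voom none of the 9 passed and by DESeq2 6 did.

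The phagocyte genes moved with leukocyte marker RNA in ileum. The sum of 8 pan-leukocyte markers was 2286, 651 and 1446 CPM in replicates 1, 2 and 3 of TNFdARE, and 251 to 346 in WT. The TNFdARE libraries had the same order as for Cybb, Ncf1 and Ncf4. The 12 monocyte and macrophage markers summed to 5701, 1439 and 3383 against 428 to 574, and the 12 neutrophil markers to 719, 181 and 421 against 12.2 to 20.8, with no marker of either list at 0 in a group. Per 1000 CPM of the leukocyte sum, Cybb made 146 to 233 in TNFdARE and 77.3 to 105 in WT ileum, Ncf1 68.5 to 90.2 against 39.6 to 49.7, and Ncf4 30.9 to 33.7 against 20.05 to 22.4. Each of these ranges was higher in TNFdARE without overlap. Cyba went the other way, with 99.2 to 159 in TNFdARE and 217 to 239 in WT. The part of leukocyte content in the phagocyte result was not tested.

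**Figure D3:**
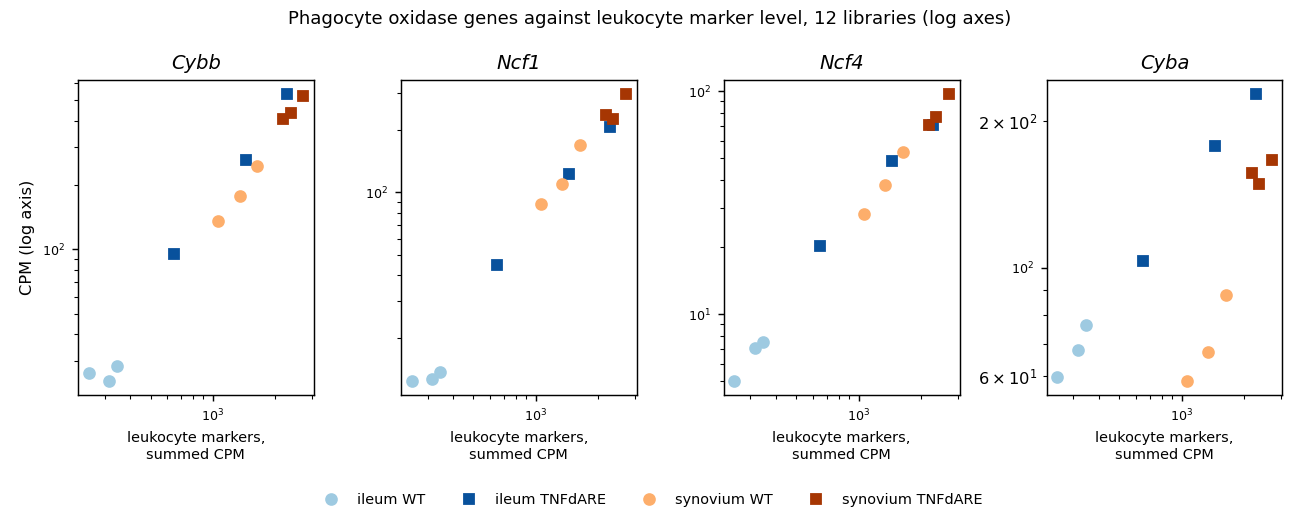
CPM of Cybb, Ncf1, Ncf4 and Cyba against the summed CPM of 8 leukocyte markers in the 12 libraries (both axes log); each point is a library, coloured by tissue and genotype. Cybb, Ncf1 and Ncf4 climb with the marker sum across all 4 groups, while Cyba in WT ileum (59.9 to 76.5 CPM) is as high as in WT synovium (58.8 to 87.8 CPM) at a lower marker sum.

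In synovium Cybb, Cyba, Ncf1 and Ncf4 all rose, by 2.08- to 2.47-fold. Cybb read 407, 523 and 432 CPM in TNFdARE replicates 1, 2 and 3 against 135, 247 and 178 in WT, 2.47-fold higher (log2 1.31 ± 0.23, edgeR adjusted p = 0.0103). Cyba read 156, 166 and 149 against 58.8, 87.8 and 67.3, 2.24-fold higher (log2 1.16 ± 0.15, adjusted p = 0.00279). Ncf1 read 235, 296 and 225 against 87.8, 168 and 109, 2.10-fold higher (log2 1.07 ± 0.26, adjusted p = 0.0303). Ncf4 read 70.8, 97.0 and 76.5 against 28.2, 53.1 and 37.9, 2.08-fold higher (log2 1.06 ± 0.25, adjusted p = 0.029). The groups did not overlap for any of the 4, and replicate 2 was the highest of both genotypes in each.

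With Noxo1, 5 of the 6 genes tested in synovium rose, where 23.8% of all 15599 genes tested were called, 13.1% higher and 10.7% lower. Duoxa2, Nox1 and Noxa1 were below the count filter. In 5 of the 6 genes tested the groups did not overlap with TNFdARE higher (21.2% of all genes tested), and in Duox2 with TNFdARE lower (22.8%). The groups also lay apart for Nox1, lower in TNFdARE, but it was not among the genes tested and had 1 count against 11. Cybb and Cyba kept their calls without any single library. The call of Ncf1 held only without WT replicate 2, with adjusted p between 0.0511 and 0.101 without any other library. The call of Ncf4 ended without TNFdARE replicate 2, TNFdARE replicate 3 or WT replicate 3, with adjusted p of 0.0753, 0.0735 and 0.0981. Replicate 2 carried the most marrow-type RNA: 9 markers of immature neutrophils summed to 3251 CPM in TNFdARE replicate 2 and 2617 in WT replicate 2, against 674 to 1441 in the other 4 synovium libraries. With both replicates numbered 2 left out, Cybb, Cyba, Ncf1 and Ncf4 stayed past the threshold at log2 1.44, 1.29, 1.24 and 1.17. Noxo1 lost its call there, at log2 0.62 (edgeR adjusted p = 0.140). With the marrow marker level as a covariate all 5 calls held. Both alternatives were chosen after seeing the data, and the part of marrow RNA in the result was not tested.

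Some marker RNA differed between the genotypes in synovium as well. The monocyte and macrophage sum was 6287 to 8155 CPM in TNFdARE and 2159 to 2684 in WT, while the neutrophil sum overlapped (1483 to 4248 against 1931 to 4122). Among the TNFdARE libraries the macrophage sum ran opposite to Cybb. It was lowest in replicate 2, where Cybb was highest, and highest in replicate 1, where Cybb was lowest. Among the WT libraries the macrophage sum had the order of Cybb. The neutrophil and pan-leukocyte sums had that order within both genotypes. Cybb made 49.9 to 83.2 per 1000 CPM of the monocyte and macrophage sum in TNFdARE and 62.5 to 91.9 in WT, so that ratio overlapped. Against the pan-leukocyte sum Cybb made 182 to 192 in TNFdARE and 127 to 151 in WT. The ranges overlapped for the other cytosolic and membrane partners Ncf1 and Ncf4. Ncf1 made 94.96 to 109 in TNFdARE against 81.2 to 103 in WT, and Ncf4 32.28 to 35.69 against 26.52 to 32.5. Cyba made 61.2 to 71.9 against 50.1 to 55.4, higher in TNFdARE, whereas in ileum this ratio was lower in TNFdARE. Skeletal muscle markers, which a dissection of the joint can carry along, summed to 2102 to 8681 CPM in TNFdARE and 12306 to 23128 in WT. The part of these differences in the result was not tested.

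The genotype effect was compared between tissues as an interaction in all 12 libraries, and 1 of the 9 genes passed where 12.1% of all 16964 genes did, 5.28% with the larger value in synovium and 6.8% with the smaller. Ncf1 rose less in synovium than in ileum, by -2.22 ± 0.62 on the log2 scale (edgeR adjusted p = 0.0437). Cybb had -2.22 ± 0.67 (adjusted p = 0.055), Ncf4 -1.81 ± 0.56 (adjusted p = 0.0585) and Nox1 -5.69 ± 1.67 (adjusted p = 0.0516), the last resting on 12 synovium counts, so that its size depends on how the fit handles counts near 0. For Cyba the difference was -0.18 ± 0.34 and for Noxo1 0.16 ± 0.16, far from the threshold (adjusted p = 0.78 and 0.555). Duox2, at -0.98 ± 0.42, did not pass either (adjusted p = 0.143). The Ncf1 call held in 2 of 12 fits that each left out a library, those without ileum TNFdARE replicate 2 (log2 -2.53) and without synovium WT replicate 1 (-2.33). Without ileum TNFdARE replicate 1 it was -1.57 (adjusted p = 0.0666). By DESeq2 Ncf1, Cybb, Ncf4 and Nox1 all passed, and by limma-voom none did.

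Between tissues of WT mice the phagocyte genes were lower in ileum, by 7.10-fold for Cybb (log2 -2.83 ± 0.50, edgeR adjusted p = 0.000411), 9.42-fold for Ncf1 (log2 -3.24 ± 0.48) and 6.10-fold for Ncf4 (log2 -2.61 ± 0.42). In TNFdARE mice 5 of the 9 genes passed, all higher in ileum, where 66.7% of all genes passed in either direction 35.0% as higher in ileum and 31.6% as lower. The libraries of the tissues lay apart for the same 5 genes (36.9% of all genes higher in ileum), and for Ncf1 and Ncf4 with ileum lower (33.8%). The test called none of Cybb, Ncf1 and Ncf4, although the libraries lay apart for Ncf1 and Ncf4: the log2 differences were -0.61 ± 0.46 for Cybb (adjusted p = 0.266), -1.01 ± 0.43 for Ncf1 (adjusted p = 0.0568) and -0.80 ± 0.38 for Ncf4 (adjusted p = 0.0831). Without ileum TNFdARE replicate 1, the library with most leukocyte RNA, all 3 were called lower in ileum, with Cybb at -1.42, Ncf1 at -1.66 and Ncf4 at -1.30. The 2 tissue comparisons share no library, but each shares libraries with the genotype comparisons.

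Cyba was the one gene at like levels in both WT tissues. It read 59.9 to 76.5 CPM in WT ileum and 58.8 to 87.8 in WT synovium (log2 -0.07 ± 0.24, edgeR adjusted p = 0.807), and 104 to 227 against 149 to 166 in TNFdARE mice (log2 0.11 ± 0.24, adjusted p = 0.701). Per 1000 CPM of the leukocyte sum it made 217 to 239 in WT ileum and 50.1 to 55.4 in WT synovium. The level of Cybb over that of Cyba per kb was 0.0638 to 0.0784 in WT ileum, 0.164 to 0.420 in TNFdARE ileum, 0.411 to 0.502 in WT synovium and 0.466 to 0.563 in TNFdARE synovium.

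The Noxa1 and Nox1 contrasts between tissues rest on few or no synovium counts. In WT mice Noxa1 had 1880 ileum counts and 1 synovium count, a ratio of shares of 2009.9 (counting interval 360.3 to 79429). In TNFdARE mice it had 2491 counts against 0, at least 961-fold higher in ileum with a floor of 3 counts over the group. Nox1 had 814 against 11 counts in WT (ratio 79.1, interval 44.0 to 159) and 4877 against 1 in TNFdARE (ratio 5646, interval from 1013 upward). Noxo1, with 192 and 330 synovium counts in WT and TNFdARE, was 23.0-fold higher in ileum in WT mice (log2 4.52 ± 0.12, edgeR adjusted p = 2.42e-10).

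These levels gave each tissue its own makeup of catalytic subunits. Per kb, Duox2 made up 92.5% ± 2.42 (SD, n = 3) of the summed level of Duox2, Nox1, Cybb, Nox4 and Duox1 in WT ileum, Nox1 4.08% ± 1.41 and Cybb 3.24% ± 1.02. In TNFdARE ileum the Duox2 share was 67.7% ± 13.7, Nox1 12.9% ± 3.102 and Cybb 19.2% ± 10.7, and none of the 3 ranges overlapped with WT. The shares are parts of one sum, so a rise in one lowers the others. The level of Duox2 itself was 159 ± 38.1 CPM per kb in TNFdARE ileum against 138 ± 43.3 in WT. TNFdARE replicate 1 had the lowest Duox2 share of any ileum library, 52.8%, and the highest Cybb share, 31.2%. In synovium Cybb made up 89.5% ± 4.21 in WT and 94.0% ± 2.14 in TNFdARE, and these ranges overlapped. With 3 libraries against 3 an exact permutation test cannot go below 0.10, so the shares were not tested.

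**Figure D4:**
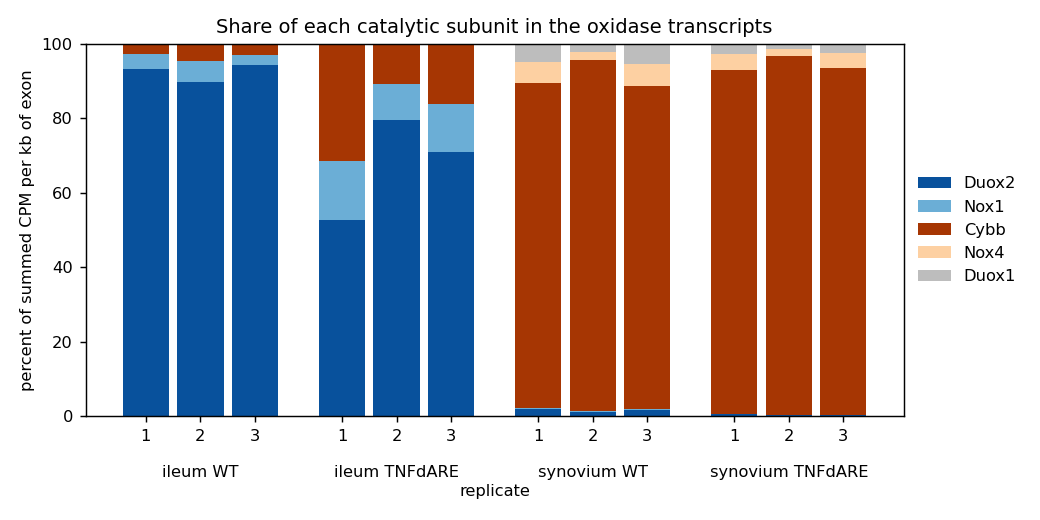
Share of each catalytic subunit in the summed CPM per kb of exon of the 5 oxidase genes detected (percent, stacked bars from 0 to 100), one bar for each library. Duox2 fills 89.8% to 94.4% of the WT ileum bars and 52.8% to 79.5% of the TNFdARE ileum bars, and Cybb fills 86.8% to 96.5% of the synovium bars.

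Of 9 further genes of the oxidase family and its partners, Nox3, the oxidase of the inner ear, had 0 counts in every library. Nox4, an oxidase that needs no cytosolic subunit, read 8.44 to 17.9 CPM in WT synovium and 0.774 to 1.46 in WT ileum. Duox1 and its partner Duoxa1 mirrored Duox2 and Duoxa2 across tissues: both were lower in WT ileum, Duox1 by 13.7-fold, and Duoxa1 with 3 counts against 151, a ratio of shares of 0.0212 (counting interval 0.00433 to 0.0633). In all 7 of the 8 tested were lower in WT ileum than in WT synovium, where 38.2% of all genes were, and Rac1, a GTPase expressed in most cells, was higher there (log2 0.69 ± 0.07, edgeR adjusted p = 3.19e-06).

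With genotype, none of the 6 further genes tested in ileum passed by edgeR, where 5.68% of all genes did. All 6 had an unadjusted p under 0.05, as had 30.5% of all genes. DESeq2 called 4 of the 6 and 17.6% of all genes, and limma-voom called none of either. Hvcn1, a proton channel that balances the charge moved by the phagocyte oxidase, read 118, 27.8 and 62.1 CPM in TNFdARE ileum against 13.3, 10.6 and 14.1 in WT (log2 2.46 ± 0.53, adjusted p = 0.0526). Rac2, the Rac of blood cells, had 1.79 ± 0.48 (adjusted p = 0.0761). Nox4 had 0.79 ± 0.32 and Cybc1, a chaperone of the membrane subunits, 0.31 ± 0.11.

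The level of Cybb over that of Ncf1 per kb moved little beside these changes in level. It was 1.20 to 1.33 in the WT and 1.34 to 1.63 in the TNFdARE libraries of ileum, and 0.924 to 1.03 in the WT and 1.09 to 1.21 in the TNFdARE libraries of synovium. Both pairs of ranges were higher in TNFdARE without overlap. The level of Cybb over that of Ncf4 spread more in ileum, at 1.20 to 1.81 in WT and 1.63 to 2.62 in TNFdARE, and these ranges overlapped. In synovium that ratio was 1.61 to 1.67 in WT and 1.87 to 2.00 in TNFdARE. No test was run on any of these ratios.

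A list of 27 genes of superoxide and peroxide handling also held genes of wider antioxidant defence, such as Hmox1, Nqo1, Gclc and Gclm. Of this list 2 rose and 1 fell among 24 tested in ileum. In synovium 8 rose, Gclm among them, and 1 fell among 25 tested. Of all genes, 4.12% rose and 1.57% fell in ileum, and 13.1% rose and 10.7% fell in synovium. In ileum Sod3, the extracellular superoxide dismutase, read 95.3, 41.1 and 78.7 CPM in TNFdARE against 22.7 to 24.1 in WT (log2 1.64 ± 0.31, edgeR adjusted p = 0.0447). Gpx1, a glutathione peroxidase of the cytosol, rose by 0.79 ± 0.16 (adjusted p = 0.0455), and Srxn1, which repairs oxidized peroxiredoxins, fell by 0.47 ± 0.08 (adjusted p = 0.0404). All 3 calls ended without any one library other than TNFdARE replicate 2 (adjusted p up to 0.175). In synovium Gpx3, the secreted glutathione peroxidase, fell from 1345 to 1478 CPM in WT to 590 to 639 in TNFdARE (log2 -1.19 ± 0.09, adjusted p = 0.000419). Txn1, a thioredoxin, rose by 0.71 ± 0.07 (adjusted p = 0.00115), Gpx1 by 0.50 ± 0.08 (adjusted p = 0.00509) and Sod3 by 0.83 ± 0.14 (adjusted p = 0.00632). These 4 synovium calls held without any single library. Mpo, the neutrophil enzyme that uses hydrogen peroxide to make hypochlorous acid, had 1 count in all in ileum and 1087 to 6749 counts in each synovium library. It is also among the markers of immature neutrophils summed above for marrow-type RNA. Its genotype effect in synovium did not pass the test (log2 0.38 ± 0.75, edgeR adjusted p = 0.756).

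The genes whose profile over the 12 libraries was most like that of Duox2, Nox1, Cybb or Ncf4 were found by the root mean square difference of centred log2 CPM. For Duox2 they were Igsf23 (0.39), Duoxa2 (0.43), Noxa1 (0.44), Ceacam18 (0.46) and Krt18 (0.47), where the median over all genes compared was 4.23. For Nox1 they were Muc4 (0.87), Krt7 (0.89), Igsf23 (0.98), Duox2 (0.99) and Apoa4 (1.03), a looser fit. For Cybb they were Pirb (0.17), Igsf6 (0.20), Ncf1 (0.22), Ncf4 (0.28) and Nlrp3 (0.29), against a median of 1.67. For Ncf4 they were Myo1f (0.16), Tyrobp (0.18), Napsa (0.21), Stx11 (0.23) and Lcp1 (0.25). The 12 libraries fall into 2 tissues, so much of any such likeness is the tissue difference. Noxo1 ranked at 486 of 13655 genes for Duox2 (2.09) and at 398 for Nox1 (2.00), and Cyba at 1012 for Cybb (1.19).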

How the data were processed

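Raw counts for each Ensembl gene were used as the authors deposited them. Per the labels, RNA was isolated with RNeasy Micro, made into stranded poly-A libraries and sequenced as single reads. Reads went through cutadapt 1.15 and Bowtie2 2.3.3.1 with GRCm38, per the submitters' processing notes, and the counter, its strand setting and its annotation were not given in the sources used here. Of the 46603 genes, 19236 had 0 counts in every library. Symbols (98.7% of identifiers), coordinates and exon lengths came from the GENCODE M21 annotation of GRCm38. The deposited FPKM were not used here.

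Each tissue was fitted on its 6 libraries in R 4.3.3 with edgeR 4.0.16: filterByExpr, TMM, robust quasi-likelihood F test, two-sided, Benjamini-Hochberg adjustment over all genes tested, threshold 0.05. The interaction and both tissue comparisons came from one model of the 4 groups over 12 libraries. SE is the log2 fold change over the square root of F. CPM used TMM over 12 libraries and was divided by exon length for levels between genes. A count of 0 allows up to 3 counts (0.185 to 0.210 CPM without TMM), and such limits, like the intervals, cover counting error only. Likeness used log2(CPM + 0.1) over genes whose mean on the log2 scale was 1 or more. limma 3.58.1 (voom) and DESeq2 1.42.0 were alternatives, with other scalings, other filters, a replicate block and each library left out. The fits were tested on simulated data.

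The genes, lists and comparisons were chosen with earlier results of these data known. Named genes are the 9 oxidase genes, the related genes of a list of 9, of which 1 is not reported here, and, of the peroxide and superoxide enzymes, at most 4 called with the smallest adjusted p in each genotype comparison and in the interaction. Replicates of a group differed by far more than sampling noise. Equal replicate numbers of TNFdARE and WT deviated together in synovium (correlations 0.455, 0.293 and 0.177 over 10535 autosomal genes), and the synovium block changed no call of the 9 genes. Replicate 3 was the one library of each group with high Xist, so the numbers also separate the sexes as read from the counts. The labels call the replicates biological and do not name the animals.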

Additional observations from a re-analysis of the deposited data

Results flagged for a closer look

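The genotype effect differed between tissues, by the interaction test of edgeR, in Ncf1, 1 of the 9 oxidase genes, and in 6 related genes. Of the further oxidase genes, 1 had the larger and 1 the smaller value in synovium among 8 tested. Of the superoxide and peroxide list, 3 had the larger and 1 the smaller among 26 tested. Of all genes 12.1% passed that test, 5.28% with the larger value in synovium and 6.8% with the smaller. No test was run on these counts. For Ncf1 the effect in synovium minus that in ileum was -2.22 on the log2 scale (adjusted p = 0.0437), with increases in both tissues. That call ended in 10 of 12 fits that each left out a library, and with limma-voom. For Hvcn1 it was -2.21 (adjusted p = 0.0329): its log2 fold change was 2.46 in ileum and 0.28 in synovium, neither past the threshold by itself. For Rac1 it was 0.40 (adjusted p = 0.0243), with -0.20 in ileum and 0.23 in synovium, neither past the threshold by itself. Rac1 read 403 to 422 CPM in TNFdARE ileum against 452 to 485 in WT, and 324 to 345 against 281 to 303 in synovium. The groups did not overlap in either tissue. Rac1 shares 51.4% of its exon length with Daglb and Hvcn1 44.2% with Tctn1, both on the other strand.

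Among the enzymes that handle peroxide, Gpx3 had -1.43 (adjusted p = 0.00111), with 77.3 to 109 CPM in ileum and its fall in synovium. Prdx1, a peroxiredoxin, had 0.97 (adjusted p = 0.0125), with 502 to 592 CPM in TNFdARE ileum against 612 to 658 in WT and 235 to 366 against 173 to 190 in synovium. Txnrd1, which reduces thioredoxin, had 0.55 (adjusted p = 0.0326), and Txn1 had 0.55 (adjusted p = 0.0398). The calls of Gpx3 and Prdx1 held without any single library. Those of Rac1, Hvcn1, Txn1 and Txnrd1 ended in 4, 9, 6 and 5 of 12 such fits.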

How the results depend on the processing

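Most directions held and many call counts did not. Over 1317 alternative values, 1148 kept direction and side of the threshold, 128 lost the call, 34 gained one and 7 turned. With a library left out, uncalled genes ran from -0.013 to 0.43 (Duox2, ileum), -0.12 to 0.51 (Duoxa2, ileum), -0.34 to 0.16 (Cyba, interaction), -0.18 to 0.11 (Cyba, WT tissues) and -0.22 to 0.30 (Cyba, TNFdARE tissues). The values that turned were of uncalled genes: Duoxa2 in ileum (-0.04 without TNFdARE replicate 3, -0.12 without WT replicate 2), Duox2 in ileum (-0.013 without WT replicate 2), and Cyba in the interaction (0.16 without ileum TNFdARE replicate 1), between WT tissues (0.03 without ileum WT replicate 2, 0.11 without synovium WT replicate 2) and between TNFdARE tissues (-0.22 without ileum TNFdARE replicate 1).

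In ileum the count of 4 called oxidase genes became 7 with library sizes alone, which shifted the median of all genes by 0.11 on the log2 scale and the split of all calls from 637 higher and 242 lower to 1218 and 161, 1 without the filter and 0 with limma-voom (7 at an unadjusted p under 0.05), and ran from 0 to 6 with a library left out. The 879 genes called in all became 1379 with library sizes alone, 2715 with DESeq2, 0 with limma-voom (4584 at an unadjusted p under 0.05), 2722 with all 12 libraries fitted together and 3573 without replicate 2 of both genotypes, an alternative chosen after seeing the data, as was the marrow covariate; with a library left out they ran from 0 to 4633. In synovium the count of 5 became 2 without the filter and 2 with all 12 libraries, and 2 to 4 with a library left out. The 3713 genes called there became 2301 without replicate 2 of both genotypes, and 2141 to 2927 with a library left out. In the interaction the count of 1 became 2 with RLE factors, 2 with a filter of 1 CPM in 3 libraries, 0 without a filter (5 at an unadjusted p under 0.05), 4 with DESeq2, 0 with limma-voom (2 unadjusted) and 0 to 4 with a library left out. The 2050 genes called there became 3193 with DESeq2 and 1015 to 3506 with a library left out. Between WT tissues the count of 8 held in all alternatives run, and between TNFdARE tissues the count of 5 became 7 with DESeq2 and with limma-voom and ran from 5 to 8 with a library left out (8 without ileum TNFdARE replicate 1).

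In ileum equal replicate numbers correlated at 0.249, 0.255 and 0.0867, so the numbers were not taken to pair the samples, although replicate 3 was also the library with high Xist in each group. Each correlated best with its own number in 5 of 6 libraries. With the replicate block the ileum count was 5, as Cybb left (3.19, adjusted p = 0.0525) and Noxo1 and Cyba joined, the interaction count was 2, and the synovium, WT and TNFdARE tissue counts were 5, 8 and 5. In synovium Nox1, Noxa1 and Duoxa2, with at most 16 counts over the 3 libraries of a genotype, were below the count filter and were tested only without it or with all 12 libraries. The cause of these changes was not tested.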
